A study of Mus musculus with 2 samples.

Results

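The BCL2 family genes that decide whether a cell keeps its mitochondria intact were followed through splenic leukocytes of mice given low or high vitamin B12. The members were 10 genes named by symbol, picked with earlier results of these data known, out of 32285 genes in the deposited tables: the pro-survival genes Bcl2, Bcl2l1, Mcl1, Bcl2a1a, Bcl2a1b and Bcl2a1d, the pore-forming effectors Bax and Bak1, and the BH3-only genes Bcl2l11 and Bid. All 10 were found in both libraries. One library is labelled Low B12 and the other High B12, each made from viably frozen mouse splenocytes gated as CD45.2+CD11b+, using DAPI, and run through a 10x Genomics single-cell 3′ kit. CD45.2 is 1 of the alleles of the leukocyte antigen CD45, and CD11b is an integrin subunit of neutrophils, monocytes and parts of the NK, dendritic and B cell pools. The series title places the study in Tet2-deficient blood formation, but the labels give no genotype, strain, age, dose or number of mice. Each condition had 1 library, so no test between conditions was made. All intervals are 95% intervals of counting error, and library and B12 effects cannot be told apart.

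BCL2 family proteins meet at the outer mitochondrial membrane. The pro-survival proteins hold the effectors BAX and BAK and the BH3-only proteins in check, and when these escape, the effectors open the membrane, cytochrome c is released and caspases are activated. Blood cell types lean on different guards: neutrophils are known to depend on MCL1 and to carry A1, the product of the Bcl2a1 genes, whereas resting lymphocytes depend on BCL2, and BIM, encoded by Bcl2l11, sets the lifespan of several leukocyte types.

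The Bcl2a1 locus differs between mouse and human in that the mouse carries several near-identical copies, and the 3 followed here lie close together on chromosome 9 (GRCm38, GENCODE M21). Bcl2a1a is at chr9:88956900-88962419 and Bcl2a1b at chr9:89199209-89207827, both on the plus strand, and Bcl2a1d is at chr9:88723285-88731914 on the minus strand. Their annotated transcripts were 98.2 to 99.1% identical in pairs. Of the 90-base windows in the last 400 bases of the transcript, 27.0% of those of Bcl2a1a, 34.1% of those of Bcl2a1b and 60.8% of those of Bcl2a1d also occur in another copy, so reads from such stretches cannot be assigned to 1 copy and the split between copies is uncertain. The upstream sequences are printed because all 3 copies had their highest and next highest CPM in the same cell classes, though their order differed beyond these. They run 5′ to 3′ up to the first annotated base of each gene, from the RefSeq promoter table for GRCm38.p6, with each GAGGAA on either strand, letters typical of sites of the ETS factor PU.1, in capitals. The stretches are chr9:88956670-88956899 on the plus strand for Bcl2a1a, chr9:89199023-89199208 on the plus strand for Bcl2a1b and chr9:88731915-88732100 on the minus strand for Bcl2a1d.
Bcl2a1a: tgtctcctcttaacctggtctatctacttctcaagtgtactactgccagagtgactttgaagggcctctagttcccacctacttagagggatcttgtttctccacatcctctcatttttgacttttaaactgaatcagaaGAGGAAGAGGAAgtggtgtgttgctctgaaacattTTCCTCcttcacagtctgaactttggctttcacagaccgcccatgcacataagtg
Bcl2a1b: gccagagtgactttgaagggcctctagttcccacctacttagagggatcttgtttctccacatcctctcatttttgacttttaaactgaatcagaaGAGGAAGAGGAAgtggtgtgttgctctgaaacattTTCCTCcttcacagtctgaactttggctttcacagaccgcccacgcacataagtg
Bcl2a1d: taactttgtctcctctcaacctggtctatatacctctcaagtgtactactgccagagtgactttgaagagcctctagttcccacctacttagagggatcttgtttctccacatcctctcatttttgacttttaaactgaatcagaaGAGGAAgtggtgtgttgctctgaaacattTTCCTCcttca
The printed stretches hold 3, 3 and 2 matches, the first pair adjoining in Bcl2a1a and Bcl2a1b. GAGGAA occurs on either strand in 28.3% of the 32851 promoter windows of 300 bases in the table, and among the other 7 members in a window of Bcl2, Bak1 and Bid with 1 match each. TGANTCA, a loose AP-1 pattern in which N is any base, occurred once in the window of each Bcl2a1 copy, in no window of another member and in 7.81% of all windows. In all 3 copies N was A, so the match rests on the open base and is not the usual AP-1 site. Aligned windows of the copies were 96.0 to 99.2% identical. These are letters in a window and not measured binding.

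The remaining members are spread over the genome. Bcl2 (chr1:106538178-106714274, minus strand) spans 176097 bases, far more than Mcl1 (chr3:95658788-95663176, plus strand), which spans 4389. Bcl2l1 lies at chr2:152780668-152831728 and Bcl2l11 at chr2:128126038-128162547, Bax at chr7:45461697-45466898, Bak1 at chr17:27019810-27029009 and Bid at chr6:120891930-120916853. Exons of Bax overlap the predicted gene Gm45808 and those of Bcl2a1b overlap Gm29094 on the same strand, so reads there could be split or dropped. Exons of Bcl2, Bak1 and Bid overlap D630008O14Rik, Ggnbp1 and Bcl2l13 on the opposite strand.

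A barcode counted as a cell from 500 UMIs and 200 genes upward if mitochondrial genes gave no more than 10% of its UMIs, which held for 6510 low-B12 and 6748 high-B12 barcodes, from totals of 48884220 and 46994991 UMIs. The libraries shared 4 cell barcodes. Values below are given for the low-B12 library first and in CPM, the UMIs of a gene per 1000000 UMIs summed over the class. By first match the cells fell into neutrophils with at least 5% of UMIs from S100a8 and S100a9 (942 and 2672 cells), B cells with 3 UMIs of Cd79a and Cd79b (1853 and 673), NK cells with 2 UMIs of Ncr1 and Klrb1c (946 and 844) and conventional dendritic cells, cDC, with 3 UMIs of Cd209a, Clec10a and Flt3 (479 and 403). Barcodes with 2 UMIs of Csf1r were monocytes, split at 3 UMIs of Ly6c2, Ccr2, F13a1 and Fn1 into Ly6c2-high (814 and 654) and Ly6c2-low (450 and 188), and 1026 and 1314 barcodes met no rule. In both libraries, markers at 50 CPM or more numbered 10 of 10 in neutrophils and B cells, 9 of 9 in NK cells, 8 of 9 in cDC, 7 of 7 in Ly6c2-high monocytes and 6 of 6 nonclassical markers in Ly6c2-low monocytes. All these lists but the nonclassical one hold the genes of the class rules, so part of each count followed from the rule. Of the 6 nonclassical markers, 4 were at 50 CPM or more in Ly6c2-high monocytes too, in both libraries. Itgam, which encodes CD11b, was at 111 to 540 CPM over the 6 classes. UMIs per cell differ between classes (medians of 3100.5 and 3530 in neutrophils against 9069 and 9666 in Ly6c2-high monocytes), and a CPM is therefore a share of a cell's RNA, not an amount per cell.

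Bcl2, the founding survival gene, was highest in NK cells, at 644 CPM (621 to 668) with low B12 and 468 CPM (447 to 489) with high B12. Ly6c2-low monocytes followed at 337 and 266 CPM and B cells at 256 and 199 CPM. Ly6c2-high monocytes had 44.5 and 29.6 CPM, neutrophils 31.9 and 11.2 CPM and cDC 30.2 and 25.2 CPM. These last 3 classes lay below the level in empty droplets, barcodes of 10 to 100 UMIs, which was 80.6 CPM (66.5 to 96.8) and 60.4 CPM (49.99 to 72.3). Top and bottom class differed 21.4-fold and 41.7-fold within the libraries, the widest ranges of any member apart from Bcl2a1a in the low-B12 library. In cells thinned to 1000 UMIs, 40.2% of NK cells (37.1 to 43.4%) and 32.1% (29.0 to 35.4%) had a Bcl2 UMI, against 3.76% and 3.72% of cDC. Before thinning these shares were 74.5% and 69.7% in NK cells and 16.9% and 17.6% in cDC, and 4 and 13 NK cells were too shallow to be thinned.

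Within the monocytes, Bcl2 separated the subsets: Ly6c2-low cells exceeded Ly6c2-high cells 7.59-fold (6.68 to 8.63) with low B12 and 8.99-fold (7.43 to 10.9) with high B12. Counted per cell, with fewer UMIs in the Ly6c2-low cells, the difference was 4.29-fold and 4.91-fold. The 3 Bcl2a1 copies stood on the same side, Bcl2a1b by 5.70-fold and 6.17-fold, Bcl2a1d by 5.82-fold and 6.07-fold, and Bcl2a1a by 4.99-fold and 3.85-fold. So 4 of 10 members were 3-fold or more higher in the Ly6c2-low monocytes in each library, where 2.4% and 2.42% of all genes measured were. No member was 3-fold lower, against 1.96% and 2.17% of genes. Bcl2l11, whose product BIM opposes these survival proteins, had 56.4 against 87.5 CPM in the low-B12 library, a ratio of 0.64 (0.53 to 0.78), and with high B12 62.8 against 73.7 CPM, a ratio of 0.85 whose interval (0.64 to 1.11) includes 1. Mcl1 took nearly the same share of RNA in both subsets, with ratios of 0.98 and 1.03.

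Mcl1, which encodes a short-lived survival protein, had its highest CPM in neutrophils, 930 (905 to 954) and 909 (895 to 924). Ly6c2-high monocytes had 753 and 683 CPM, Ly6c2-low monocytes 742 and 703, cDC 565 and 546, B cells 381 and 454, and NK cells 292 and 271. The order of NK below B below cDC held in both libraries, while the intervals of the monocyte subsets overlapped and their order differed between the libraries. Bcl2 and Mcl1 thus ran in opposite directions in NK cells and neutrophils. Of all UMIs of the 10 members, Mcl1 gave 78.1% and 82.5% in neutrophils but 22.2% and 24.6% in NK cells, and Bcl2 gave 2.68% and 1.02% in neutrophils but 49.2% and 42.5% in NK cells. UMIs are counted at transcript ends, so these shares compare classes and not the amounts of the proteins. Counted per cell, Mcl1 led in Ly6c2-high monocytes, with 7.18 and 6.67 UMIs.

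**Figure D1:**
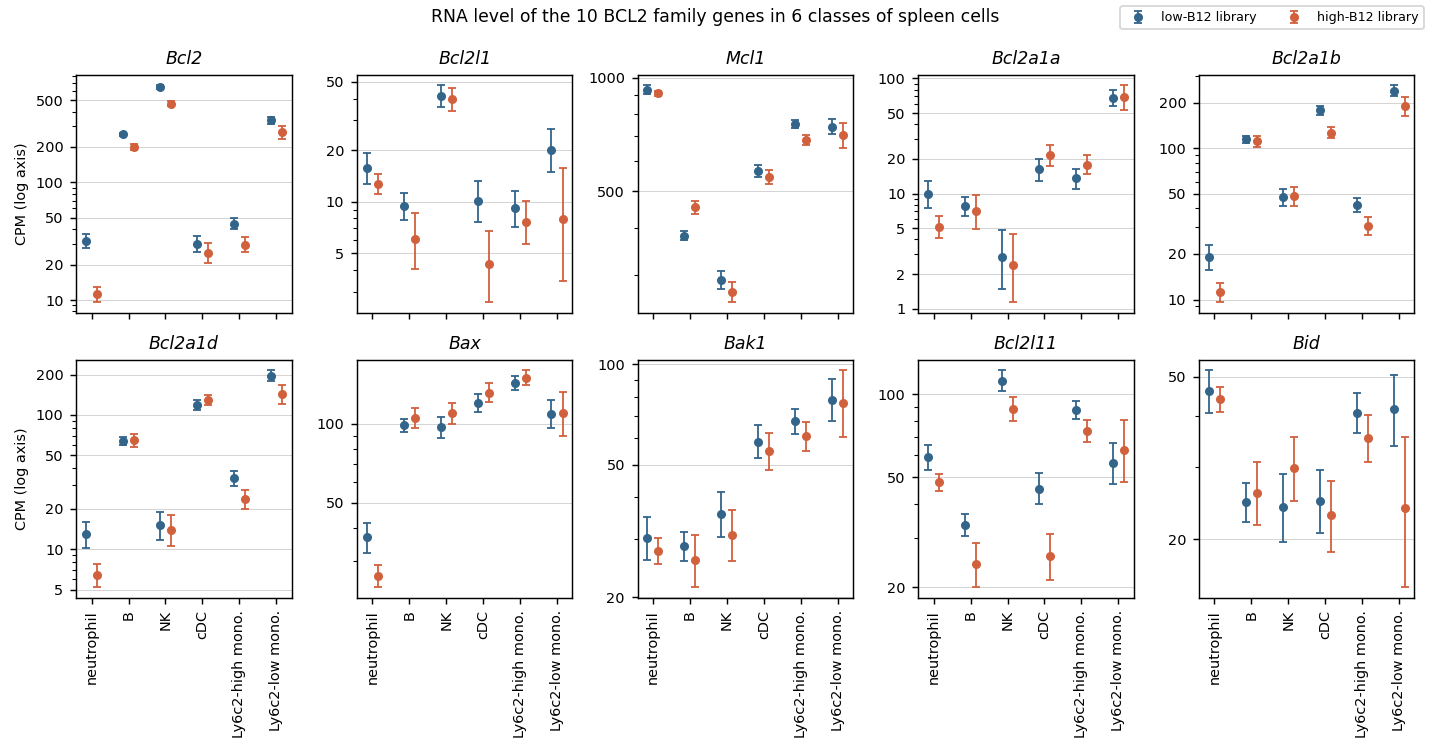
CPM (log axes, 1 scale per gene) of the 10 genes in 6 cell classes. Points are the summed UMIs of a class in 1 library, bars exact Poisson intervals at 95% for counting error; Bcl2 peaks in NK cells, Mcl1 in neutrophils, and the Bcl2a1 copies in Ly6c2-low monocytes in both libraries.

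The CPM of Mcl1 in neutrophils hides a split by granule RNA. Neutrophils were divided at 1% of UMIs from Camp, Ngp and Ltf, genes of secondary granule proteins made while neutrophils mature. Granule-high cells (263 and 743) had 414 and 364 CPM of Mcl1, and granule-low cells (679 and 1929) had 1828 and 1703 CPM, 4.41-fold (4.16 to 4.68) and 4.68-fold (4.51 to 4.86) more. Per cell the difference was nearly absent in the low-B12 library, with 6.06 UMIs in granule-high and 5.94 in granule-low cells, and was 4.89 against 6.06 UMIs in the high-B12 library. Granule-high cells carried a median of 12111 and 12069 UMIs and granule-low cells 2710 and 3085, and whether the total or Mcl1 itself differs was not tested. Bid, which links death receptors to mitochondria, was similar: 17.7 and 18.6 CPM in granule-high and 95.6 and 80.8 CPM in granule-low cells, but 0.26 and 0.25 against 0.31 and 0.29 UMIs per cell.

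Other members did not keep their UMIs per cell between these subsets. Bcl2l11 had 0.67 and 0.39 UMIs per granule-high and 0.27 and 0.27 per granule-low neutrophil, although its CPM was higher in the granule-low cells (82.5 and 75.8 against 45.5 and 28.7). Bak1 went from 0.54 and 0.38 to 0.057 and 0.094 UMIs per cell, and Bax from 0.51 and 0.35 to 0.13 and 0.093. Mcl1 and Bid were 3-fold or more higher by CPM in granule-low cells in both libraries and Bcl2a1a in the high-B12 library alone, against 11.1% and 13.2% of all genes measured. No member was 3-fold lower by CPM, against 6.69% and 8.74% of genes. Barcodes outside the 6 classes with at least 2 UMIs of Csf3r and Cxcr2 (297 and 708), had too little S100a8 and S100a9 for the neutrophil class and also carried much Mcl1, with 1403 and 1600 CPM of Mcl1, 95.3 and 77.3 CPM of Bid and 118 and 123 CPM of Bcl2l11.

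**Figure D2:**
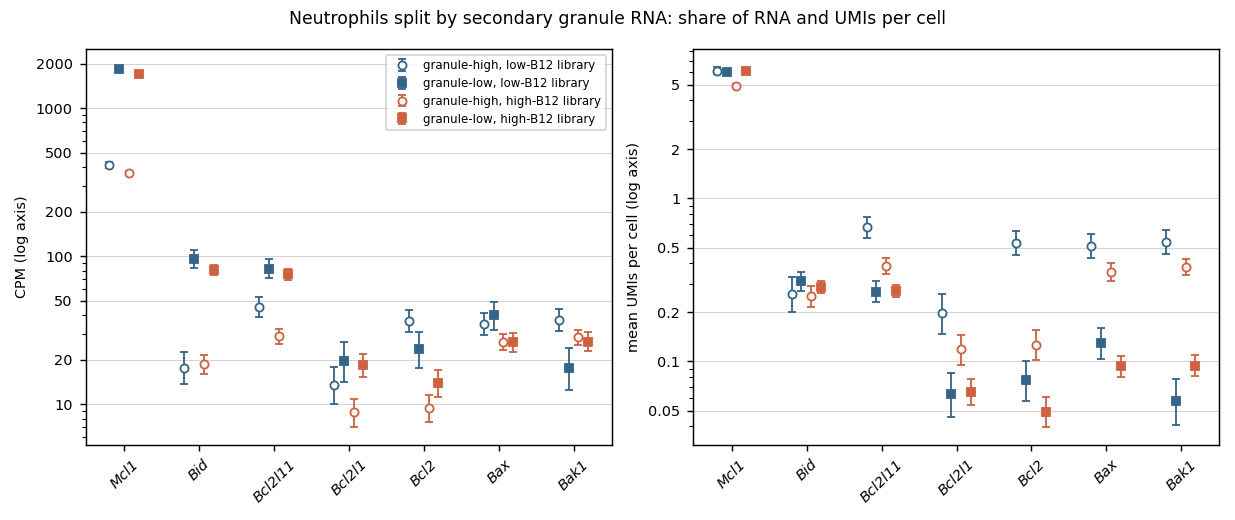
CPM (left) and mean UMIs per cell (right) of 7 members in granule-high (open circles) and granule-low (filled squares) neutrophils, log axes, bars exact Poisson intervals at 95%. Mcl1 and Bid separate the subsets by CPM but differ little per cell, while Bak1 and Bax are lower per granule-low cell.

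Bcl2l1, which encodes the survival protein BCL-XL, rested on few counts, 649 and 567 UMIs over all cells. It was highest in NK cells at 41.4 CPM (35.8 to 47.7) and 39.7 CPM (33.9 to 46.2). In the other 5 classes it lay between 9.15 and 20.2 CPM with low B12 and between 4.35 and 12.7 CPM with high B12. NK cells were thus the leading class for both Bcl2 and Bcl2l1.

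The Bcl2a1 copies, which encode the inducible survival protein A1, had their highest CPM in Ly6c2-low monocytes and the next highest in cDC. Bcl2a1b had 240 and 189 CPM in Ly6c2-low monocytes, 178 and 126 in cDC, 114 and 111 in B cells, 47.3 and 48.1 in NK cells, 42.1 and 30.7 in Ly6c2-high monocytes, and 19.0 and 11.2 in neutrophils. Bcl2a1d had 196 and 142 CPM in Ly6c2-low monocytes and 119 and 129 in cDC, down to 12.9 and 6.41 in neutrophils. Bcl2a1a had 67.5 and 68.7 CPM in Ly6c2-low monocytes, 16.2 and 21.5 in cDC and 2.81 and 2.40 in NK cells, the last from only 13 and 10 UMIs. Counted per cell, cDC and not Ly6c2-low monocytes led for Bcl2a1b and Bcl2a1d. Neutrophils, for which A1 is known as a survival factor, held the lowest Bcl2a1b, below the empty droplets at 106 and 74.7 CPM.

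The balance of the copies differed between classes. Bcl2a1a gave 4.19% (3.44 to 5.05%) and 3.86% (2.70 to 5.33%) of the Bcl2a1 UMIs in B cells and 4.30% and 3.73% in NK cells. It gave 13.4% (11.5 to 15.4%) and 17.2% (13.6 to 21.2%) in Ly6c2-low monocytes, 15.1% and 24.8% in Ly6c2-high monocytes, and 23.7% and 22.7% in neutrophils. In Ly6c2-high monocytes 10 cells held 56.2% and 71.9% of the Bcl2a1a UMIs, and in neutrophils 70% and 29.9%. The share in B and NK cells thus lay below that in neutrophils and monocytes in both libraries, and cDC lay between them at 5.18% and 7.78%. Among barcodes outside the classes with at least 2 Cd3 UMIs, 65 and 37 cells, Bcl2a1a had 0 of 137 and 0 of 63 Bcl2a1 UMIs. Exact binomial intervals, for counting error only, reach up to a share of 2.66% and 5.69%. These UMIs came from few cells, 10 of which held 76.5% and 87.2% of the Bcl2a1b UMIs, so the limits are too narrow for differences between cells. Bcl2a1b gave most in NK cells, 72.5% and 74.6%, where Bcl2a1d gave 23.2% and 21.6%.

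**Figure D3:**
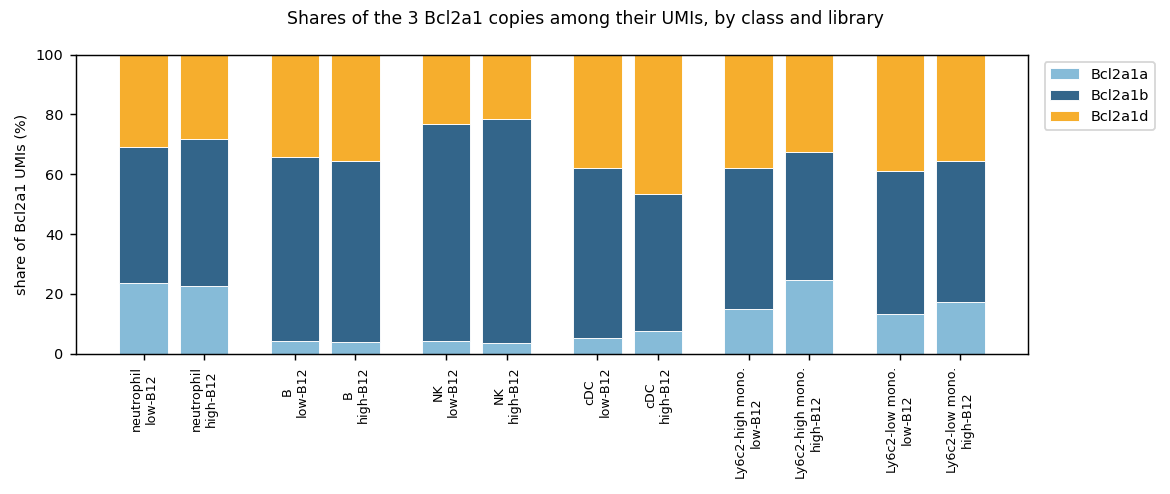
Stacked bars give the share (%) of Bcl2a1a, Bcl2a1b and Bcl2a1d among the UMIs of these 3 copies in each class and library. Bcl2a1a stays under 5% in B and NK cells and is above 13% in neutrophils and both monocyte classes, and reads shared between the copies could shift the split.

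Cells rich in Bcl2a1 RNA were also read apart. The 211 and 117 cells with at least 10 UMIs of the 3 copies, 3.24% and 1.73% of cells, held 44.99% and 46.7% of all Bcl2a1 UMIs. They were deeper than the other cells, with medians of 10315 and 10585 against 5544 and 4235 UMIs, and Scrublet marked 31 and 9 of them as doublets. In the low-B12 library 58 of the rich cells were cDC, 39 B cells and 74 met no class rule, and in the high-B12 library 41, 14 and 35. The rich cDC carried 168 and 102 CPM of Ccr7 and 318 and 204 CPM of Fscn1, against 4.47 and 1.03 CPM and 16.5 and 2.82 CPM in the other cDC. CCR7 is a lymph node homing receptor and FSCN1 an actin bundler of activated dendritic cells. The rich cells were chosen by their Bcl2a1 UMIs, so neither their Bcl2a1 level nor their share of its UMIs is a result. The following splits by other genes were chosen after the values were seen.

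Split by Cd209a, cDC with a Cd209a UMI (302 and 306 cells) had 90.1 (80.0 to 101) and 91.8 (81.7 to 103) CPM of Bcl2a1b, and cDC without one (177 and 97) had 312 (289 to 337) and 228 (201 to 258) CPM. Bcl2a1d was at 75.6 and 107 CPM with and 185 and 193 CPM without Cd209a. Bcl2a1a and Bcl2a1b were 3-fold or more higher without Cd209a in the low-B12 library, against 1.98% of genes. In the high-B12 library none of the 9 members with enough UMIs was, against 0.985%, and Bcl2l1, with 8 and 11 UMIs, fell short of the count limit at 2.45 CPM with and 9.97 CPM without Cd209a. No measured member was 3-fold lower, against 0.313% and 0.451% of genes. The share of cDC without Cd209a was 37.0% with low and 24.1% with high B12. The ratio of Bcl2a1b between the libraries, 0.71 (0.64 to 0.79) over all cDC, was 1.02 (0.86 to 1.20) in cDC with Cd209a and 0.73 (0.63 to 0.85) in those without. In cDC with at least 3 UMIs of Ccr7 and Fscn1 (30 and 10 cells) Bcl2a1b reached 1034 (921 to 1157) and 1437 (1212 to 1691) CPM, 8.11-fold and 15.04-fold above the other cDC. Bcl2a1a, Bcl2a1b and Bcl2a1d were 3-fold or more higher there in both libraries and Bcl2l1 in the low-B12 library, where 5.22% and 5.92% of all genes measured were. The only members 3-fold or more lower by value were Bak1 in the low-B12 library and Bid in the high-B12 library, against 13.5% and 18% of genes. Both rested on few counts. Bak1 had 5 UMIs, 17.1 against 61.1 CPM, a ratio of 0.28 (0.09 to 0.66). Bid had 0 UMIs, with an upper limit of its ratio of 1.60. Bcl2l1 had 64.8 against 6.88 CPM in the low-B12 library, from 19 UMIs in the 30 cells, and 19.95 against 3.98 CPM in the high-B12 library, from 2 UMIs. The splits overlapped, with Ccr7 at 0 and 0.61 CPM in cDC with Cd209a and 70.9 and 45.3 CPM in those without. The 30 and 10 cells held 303 and 144 Bcl2a1b UMIs, and all cDC without Cd209a 648 and 252. The part of these cells in the Cd209a contrast was not tested.

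**Figure D4:**
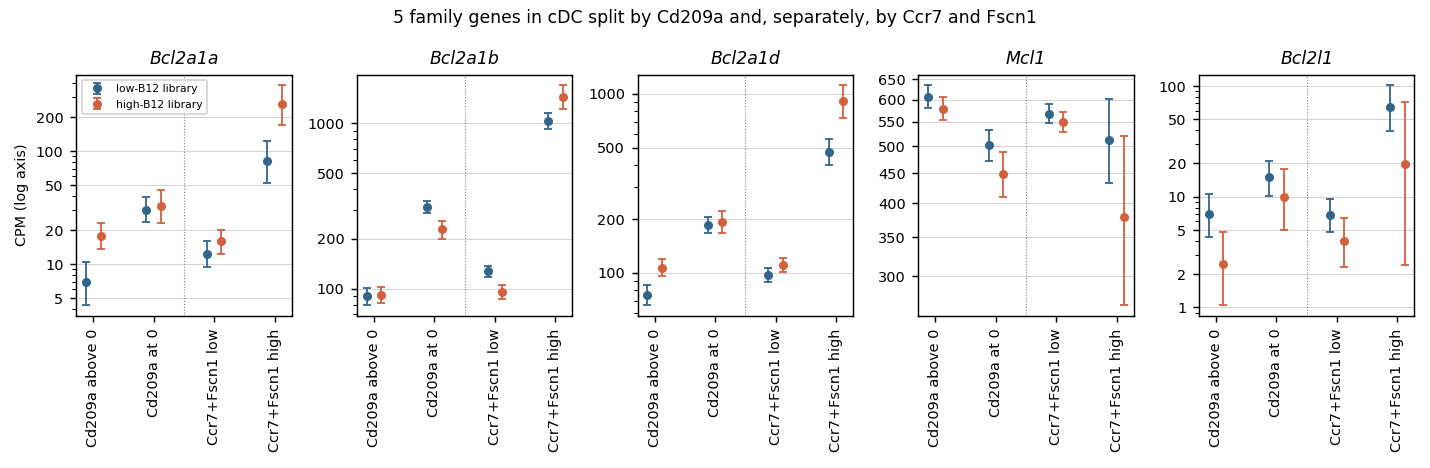
CPM (log axes) of 5 members in cDC split by Cd209a (left of the dotted line) and, separately, by a sum of at least 3 UMIs of Ccr7 and Fscn1 (right), bars exact Poisson intervals at 95%. The Bcl2a1 copies are higher in cDC without Cd209a and highest in cDC with Ccr7 and Fscn1 in both libraries, the latter from 30 and 10 cells. The splits overlap, as Ccr7 RNA was nearly absent from cDC with Cd209a.

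The effectors were more evenly spread. Bax was highest in Ly6c2-high monocytes, 143 (135 to 152) and 150 (140 to 160) CPM, and lowest in neutrophils, 36.8 and 26.3 CPM, a 3.88-fold and 5.70-fold range. In the other 4 classes Bax lay between 96.9 and 131 CPM. Bak1 was highest in Ly6c2-low monocytes at 78.2 and 76.7 CPM, followed by Ly6c2-high monocytes (67.5 and 60.7) and cDC (58.6 and 54.9), and the intervals of neighbours in this order overlapped in both libraries. NK cells, neutrophils and B cells had 25.8 to 35.6 CPM of Bak1. The neutrophil, with the highest Mcl1 CPM, thus had the lowest Bax CPM and low Bak1.

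Among the BH3-only genes, Bcl2l11 was highest in NK cells, 112 (102 to 122) and 88.5 (79.7 to 98.0) CPM, the class that also led for Bcl2. Ly6c2-high monocytes had 87.5 and 73.7 CPM, neutrophils 59.0 and 47.9, Ly6c2-low monocytes 56.4 and 62.8, cDC 45.5 and 25.9, and B cells 33.6 and 24.2. Bid had the narrowest range of the 10 genes, 1.92-fold in each library, from 46.1 and 44.0 CPM in neutrophils to 24.0 CPM in NK cells and 22.9 CPM in cDC. All 10 members had the same leading class by CPM in both libraries. By mean UMIs per cell 9 did, with Bak1 led by Ly6c2-high monocytes in one and cDC in the other.

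Between the libraries, the members were mostly a little lower in the high-B12 library. A pair of member and class was read where it had at least 50 UMIs over both libraries, which 59 of 60 did, all but Bcl2a1a in NK cells. Ratios between libraries are high-B12 over low-B12 CPM. The high-B12 CPM was below the low-B12 CPM in 44 of 59 pairs and above it in 15, where 64.1% and 35.9% of all pairs of gene and class were. The counting interval of the ratio lay below 1 in 24 and above 1 in 2, against 24.3% and 8.58% of all pairs. Of the pairs, 10 were lower by 1.5-fold or more and 0 higher. These were Bcl2 and the 3 Bcl2a1 copies in neutrophils, where 16% of all genes measured were that much lower, Bcl2l1 in B cells (8.83%), Bcl2l1 and Bcl2l11 in cDC (5.97%), Bcl2 in Ly6c2-high monocytes (3.95%), and Bcl2l1 and Bid in Ly6c2-low monocytes (9.24%). In NK cells no measured member was 1.5-fold lower, against 7.5% of genes. Genes 1.5-fold or more higher made up 1.95% in neutrophils, 2.91% in B cells, 2.2% in NK cells, 2.22% in cDC, 2.62% in Ly6c2-high and 5.8% in Ly6c2-low monocytes. The median log2 ratio of all genes was itself negative, from −0.22 in neutrophils to −0.05 in Ly6c2-low monocytes, and that of the members was −0.40 in neutrophils, −0.09 in B cells, −0.11 in NK cells and in cDC, −0.23 in Ly6c2-high and −0.21 in Ly6c2-low monocytes.

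**Figure D5:**
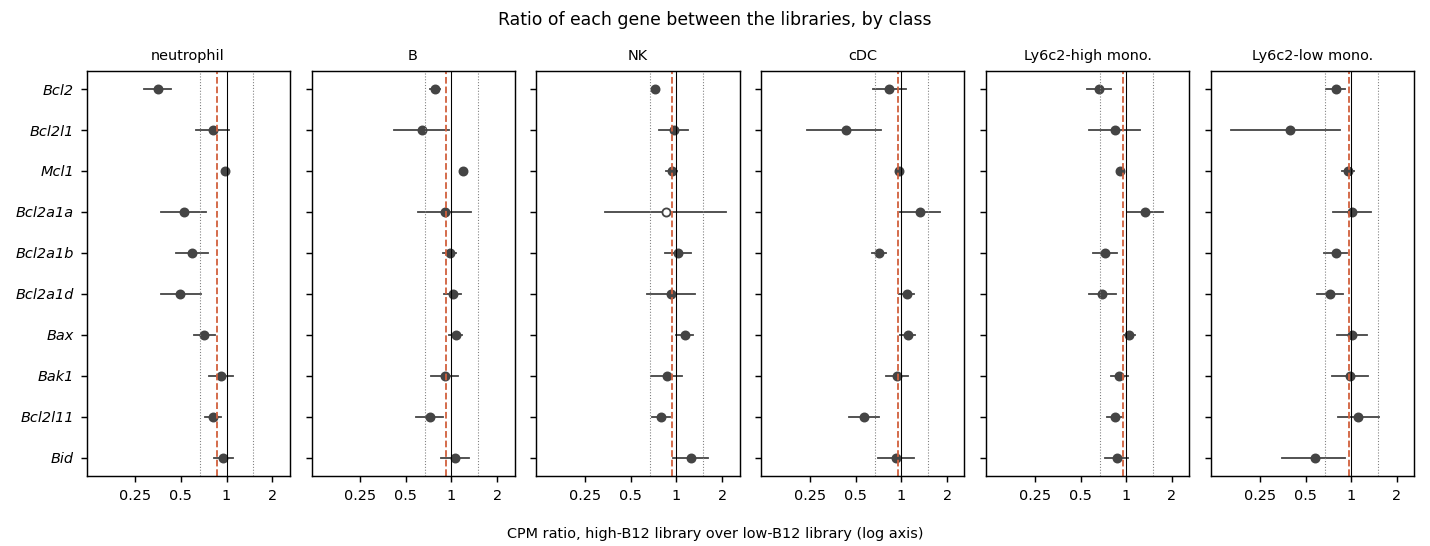
CPM in the high-B12 library divided by CPM in the low-B12 library (log axis) for each member in each class, with exact conditional binomial intervals at 95% for counting error. The open circle is below 50 UMIs, dotted lines mark 1.5-fold and the dashed line the median of all genes. Bcl2, Bcl2l1 and Bak1 are below 1 in each class, as is the median, and Mcl1 stays close to 1 except in B cells.

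Bcl2 was lower in the high-B12 library in 6 of 6 classes, and the interval lay below 1 in 5, cDC being the exception at 0.83 (0.65 to 1.07). Bak1 and Bcl2l1 were lower in 6 of 6 classes too, with the interval below 1 in 0 and 3. The median ratio of all genes was also below 1 in each class, and the share of genes lower in every class was not counted. The Bcl2 ratio was 0.73 (0.69 to 0.77) in NK cells, 0.78 (0.72 to 0.83) in B cells, 0.79 (0.68 to 0.91) in Ly6c2-low and 0.67 (0.55 to 0.80) in Ly6c2-high monocytes. The last was no longer past 1.5-fold without Scrublet doublets, with median scaling, with every cell weighted the same, with free RNA taken off or after thinning. Its log2 ratios lay between −0.75 and −0.24 over all alternatives. The direction in cDC turned, to a log2 ratio of 0.24, in barcodes meeting exactly 1 class rule, and to 0.22 with every cell weighted the same. In Ly6c2-low monocytes it was 0.00 after thinning. Genes spanning 100 kb or more, as Bcl2 does, had a lower median than shorter ones in each class, for example a log2 ratio of −0.30 against −0.07 in NK cells, and the part of gene span in the Bcl2 difference was not tested.

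In neutrophils Bcl2 had a ratio of 0.35 (0.29 to 0.43). Marker RNA of other cells was read in the same neutrophils. The 10 B cell markers summed to 1016 CPM in low-B12 and 291 CPM in high-B12 neutrophils, with 5 and 2 of them at 50 CPM or more. The 9 cDC markers summed to 1220 and 659 CPM. The markers of NK cells, the class highest in Bcl2, were not lower, at 179 and 190 CPM. Nor were the monocyte markers, at 7973 and 8564 CPM. Of the neutrophils, 133 and 211 also met another class rule. Without them Bcl2 was at 5.48 and 3.67 CPM, a ratio of 0.67 with an interval of 0.40 to 1.15. Bcl2a1b then had 8.34 and 8.31 CPM, a ratio of 0.997 (0.679 to 1.497), Bcl2a1d 3.81 and 3.40 CPM, and Bcl2a1a 3.10 and 4.71 CPM. Among neutrophils that met 1 rule, the interval of the ratio included 1 for all 4 of these members, and the part of the other cells' RNA was not tested. There no member was 1.5-fold lower, against 7.16% of genes, and Bcl2a1a alone was higher, at 1.52 with an interval that includes 1, against 2.3% of genes. Bcl2 at 0.67 and Bcl2a1a lay so close to 1.5-fold that 0.5 UMI added to each sum put them on the other side of it.

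The members differed between the libraries to unlike extents in the neutrophil subsets, a contrast that was not tested. In granule-high cells Bcl2, Bcl2l1, Bcl2a1b, Bcl2a1d and Bcl2l11, 5 of 9 measured members, were lower in the high-B12 library by 1.5-fold or more, against 19.5% of genes, and no member was that much higher, against 1.55%. Bcl2 had 36.6 and 9.42 CPM there, and Bcl2l11 45.5 and 28.7 CPM. In the same cells the B cell markers summed to 1163 and 176 CPM and the cDC markers to 1286 and 551 CPM, while the NK markers were at 154 and 158 CPM. More than 1 class rule was met by 21.7% and 7.94% of the cells. The part of such RNA and of such cells in the result was not tested. In granule-low cells Bcl2 (23.6 and 13.8 CPM) and Bax (39.9 and 26.2 CPM) were lower, against 10.8% of genes, and Bak1 (17.7 and 26.5 CPM) higher, against 3.03%. Bak1 in these cells lay so close to 1.5-fold that 0.5 UMI added to each sum put it below that limit. The 5 granulocyte progenitor markers summed to 925 CPM there in the low-B12 library, 4 of them at 50 CPM or more, and to 5.54 CPM in the high-B12 library, none at 50 CPM and Ctsg at 0, so the granule-low cells of the low-B12 library also held progenitor RNA. Its part was not tested. In the barcodes with Csf3r and Cxcr2 outside the classes, Bcl2 (46.6 and 18.2 CPM), Bcl2a1b (70.4 and 46.4 CPM) and Bcl2a1d (36.3 and 13.3 CPM) were lower, against 12.5% of genes, and no member was higher, against 6.86%. These rested on 45 and 33, 68 and 84, and 35 and 24 UMIs. In the low-B12 library 10 barcodes held 86.7%, 80.9% and 97.1% of them, and in the high-B12 library 72.7%, 53.6% and 62.5%.

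Over the 6 classes Bak1 was the most even member between the libraries, with ratios from 0.86 to 0.98, all below 1. No interval of these left out 1. The neutrophil subsets went in opposite directions, each with an interval that left out 1. Bak1 had 37.2 and 28.3 CPM in granule-high cells, with an interval of the ratio of 0.62 to 0.94. In granule-low cells it had 17.7 and 26.5 CPM, with an interval of 1.06 to 2.18. By class, Mcl1 followed Bak1, with ratios from 0.91 to 1.19. In B cells the ratio was 1.19 (1.13 to 1.25), with 381 and 454 CPM, and in Ly6c2-high monocytes it was at 0.91 (0.87 to 0.94), 753 against 683 CPM. Over all cells together the ratio of Mcl1 was 1.23 (582 and 714 CPM) and that of Bcl2 0.49 (191 and 94.2 CPM). The libraries also differ in their classes: neutrophils, high in Mcl1, made up 14.5% and 39.6% of cells, and B cells, high in Bcl2, 28.5% and 9.97%.

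Bcl2l11 was lower in the high-B12 library in 5 of 6 classes, each with an interval below 1, though in neutrophils the log2 ratio turned to 0.26 after thinning. The difference was widest in cDC at 0.57 (0.45 to 0.71), 45.5 against 25.9 CPM. Within cDC with a Cd209a UMI it was at 0.49 (0.37 to 0.64), and without one at 0.79 (0.51 to 1.19). Among members in cDC with Cd209a, Bcl2l11 was 1.5-fold or more lower, against 6.35% of genes. Bcl2a1a was 1.5-fold or more higher there, with 6.96 and 17.8 CPM (22 and 58 UMIs), against 2.73% of genes. Over all cDC, 10 cells held 42.4% and 62.8% of the Bcl2a1a UMIs. In cDC without Cd209a no member was past 1.5-fold, against 6.66% of genes lower and 4.43% higher. Bcl2l1 in cDC had 10.1 and 4.35 CPM (53 and 19 UMIs), a ratio of 0.43 (0.24 to 0.74), and in Ly6c2-low monocytes 20.2 and 7.97 CPM (49 and 8 UMIs), a ratio of 0.39 (0.16 to 0.84). Bid in Ly6c2-low monocytes had 41.6 and 23.9 CPM (101 and 24 UMIs), a ratio of 0.57 (0.35 to 0.90). This class held more macrophage marker RNA in the high-B12 library, 235 and 700 CPM over 6 markers with 2 and 5 at 50 CPM or more. The 9 cDC markers summed to 4254 and 9890 CPM with 3 at 50 CPM or more in each, Xcr1 and Clec9a being at 0 in the high-B12 library. This list includes H2-Ab1 and Cd74 and is not particular to cDC, with 13306.5 and 12679.2 CPM in B cells. The part of these marker RNAs in the result was not tested.

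Other genes of the pathway were read from 3 lists. Over the 6 classes, 3.95 to 16% of all genes measured were 1.5-fold or more lower and 1.95 to 5.8% higher. Of 14 further BCL2 family genes, 4 to 8 were measured per class and 2 pairs were past 1.5-fold. These were Bmf in cDC (25.4 and 15.6 CPM, against 5.97% of genes lower) and in Ly6c2-low monocytes (34.2 and 17.9 CPM, against 9.24%). Bmf encodes a BH3-only protein, as Bcl2l11 does. Of 20 genes of the apoptosome, caspases and IAPs, 14 to 20 were measured per class, and 0 to 2 were past 1.5-fold lower and 0 to 2 higher. Apaf1, the scaffold that cytochrome c activates, was lower in the high-B12 library in NK cells (49.0 and 30.3 CPM), against 7.5% of genes. In Ly6c2-low monocytes the apoptosis inhibitor Aven (33.8 and 18.9 CPM) was lower, against 9.24% of genes. Diablo, an IAP antagonist, was higher there (13.6 and 22.9 CPM), against 5.8%. Of 23 regulators of the members, 20 to 22 were measured per class, with 0 to 2 lower and 0 to 2 higher. The transcription factor Foxo1 was lower in NK cells (133 and 87.8 CPM), against 7.5% of genes. The neutrophil gene Csf3r was higher in NK cells (40.8 and 91.6 CPM), cDC (55.2 and 97.5) and Ly6c2-low monocytes (287 and 464), beside summed neutrophil markers of 732 and 2026, 1470 and 2454, and 4088 and 5819 CPM in these classes, and the part of that RNA was not tested.

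Over the 12 values of 6 classes in 2 libraries, the genes most like a member were taken by Pearson's r of log2(CPM + 10) among 5050 genes, as a description only, since the points share libraries and classes. For Bcl2 these were Cr1l, Maml2 and Pafah1b1 (r of 0.97 each), and for Mcl1 they included Pfkfb4 and Pirb (0.97 each). For Bcl2a1a they were Tet2 (0.98), the gene named in the series title, Htra2 (0.97) and Tcf7l2 (0.97). For Bcl2a1b they were Phlpp1 (0.97), its copy Bcl2a1d (0.95) and Rel (0.93), which encodes an NF-kB subunit. Bcl2a1d had Bcl2a1b (0.95), Usp6nl (0.93) and Aim2 (0.93). Bax was most like Rpn2, Eif3h and Hint1 (0.99 each), Bak1 was like Pacs2 and Acer3 among others (0.99 each), and Bcl2l11 like Zswim6 (0.93), Rab2a (0.91) and Slc20a1 (0.90). Bid and Bcl2l1 did not reach the 50 CPM needed.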

How the data were processed

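Summed UMI counts of 2 libraries, 1 per B12 condition, were analysed. The authors deposited matrices of raw counts per gene and barcode, unnormalized and unfiltered for cells. Cell Ranger is given as 2.1.1 in the submitters' processing notes but as 4 per the file headers. No genome build or annotation is named in the sources used here. Positions come from GENCODE M21 (GRCm38), which holds 99.6% of the 32285 gene IDs deposited.

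Barcodes were filtered and classed by the rules in the text (Python 3.11.15, scanpy 1.11.5, scipy 1.17.1), and left-out barcodes with over 10% mitochondrial UMIs numbered 303 and 524. Cells held 91.1% and 90.7% of library UMIs, with medians of 5695 and 4327 UMIs. Doublets were kept, and Scrublet, which marked 493 and 329 cells, was an alternative. CPM have exact Poisson intervals and ratios exact conditional binomial ones, at 95%, for counting error only; no model across samples was possible. The ratio scripts were tested on simulated counts. Named genes outside the members were those of 3 lists past 1.5-fold with at least 20 CPM in 1 library, at most 4 a list and class, and the 3 most alike genes; a few genes that this rule names are not reported here. The members and lists were chosen with earlier results of these data known.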

Additional observations from a re-analysis of the deposited data

Results flagged for a closer look

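The libraries differed in opposite directions between classes for Mcl1. It was higher in the high-B12 library in B cells (1.19-fold, 1.13 to 1.25) and lower in Ly6c2-high monocytes (0.91, 0.87 to 0.94), a difference of log2 ratios of 0.393. Bcl2a1a likewise was at 1.32 (1.00 to 1.74) in Ly6c2-high monocytes and 0.52 (0.37 to 0.74) in neutrophils, a difference of log2 ratios of 1.34. Bcl2a1a turned to a log2 ratio of −0.05 in Ly6c2-high monocytes without the leading 1% of cells and changed sign in neutrophils under 4 alternatives, and Mcl1 in Ly6c2-high monocytes turned to 0.04 after thinning. With 1 library per condition neither difference was tested.

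All 10 members had more than 3 UMIs in each library among the barcodes left out for their mitochondrial share, 303 and 524 barcodes. Bcl2 was at 335 and 232 CPM there, against 191 and 94.2 CPM in cells, and Mcl1 at 329 and 458 CPM, against 582 and 714 CPM in cells.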

How the results depend on the processing

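Of 560 recomputed log2 ratios, 492 stayed within the counting interval of the main value, 64 moved further and 4, in a pair past 1.5-fold, took the opposite sign. The 4 were Bcl2a1a in neutrophils, at a log2 ratio of −0.94, which became 0.17 without Scrublet doublets, 0.56 in barcodes meeting exactly 1 class rule, 0.060 with every cell weighted the same and 0.15 thinned to 1000 UMIs. In pairs within 1.5-fold, 60 of 467 values took the opposite sign. The count of member and class pairs 1.5-fold or more higher, 0, was 1 under Scrublet removal and equal cell weights and 2 with exactly 1 rule. The count of lower pairs, 10, was 5 with exactly 1 rule and 5 after thinning, and 4 and 0 of the 10 pairs were kept there, 1 of the 10 having enough UMIs after thinning. All 10 were kept at 1000 UMIs or more per barcode and at 5% mitochondrial UMIs or less, 9 with free RNA taken off, 8 at 100 UMIs per pair, 7 with median scaling, 6 without Scrublet doublets and 8 with equal cell weights, and 7 without the leading 1% of cells of each member, an alternative added after seeing the data. Bcl2 in neutrophils ranged from −1.96 to −0.60 in log2, Bcl2 in NK cells from −0.51 to −0.36 and Mcl1 in B cells from 0.19 to 0.37. No paired analysis was possible because the labels carry no replicate numbers and each condition has 1 library. Leaving out a library was not possible for the same reason, and Bcl2l1, Bid and the neutrophil Bcl2a1 copies are limited by few UMIs.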
